A study of Mus musculus with 8 samples.

Results

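The genes described here are 33 mouse genes whose proteins copy DNA or supply the building blocks for it, out of 35019 gene names on the array. They were taken by the gene name that the scanner files give each probe, and all 33 were present, with 42 of 55681 probes. Their RNA was measured in cells grown from the heart and in heart muscle of C57BL/6 mice. There were 8 Agilent arrays labelled in 1 colour, 2 for each of 4 groups. Passage-8 cells were the 8th-passage derivatives of cells sorted for both the receptor c-kit and CD45, a surface phosphatase of white blood cells. CD45-negative cells were primary c-kit-positive cells without CD45, sorted from cultured left atrial appendage explants after strong digestion (0.25% trypsin). CD45-positive cells were primary c-kit-positive cells with CD45 from the same tissue after weak digestion (0.05% trypsin). Both digestions also held 0.1% collagenase D, and the atrial donors were 8 to 12 weeks old. The study's control was biopsied left ventricular wall of mice 12 weeks old. Sort gate and digestion strength changed together between the primary cells and cannot be told apart, and passage-8 cells differ from them in time in culture as well.

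Before a cell copies its genome, the origin recognition complex with Cdc6 and Cdt1 loads the Mcm2 to Mcm7 helicase on DNA, and Cdc45 and the GINS complex turn it on. Primase and polymerase alpha then lay down primers, polymerases epsilon and delta extend them on the Pcna clamp, and Fen1 and Lig1 join the lagging strand pieces. E2F transcription factors and cyclin E govern the entry into this phase, and most adult heart muscle cells have left the cell cycle.

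Signal is given as the log2 of the processed signal minus the array's 75th percentile, so each value is relative to the brighter genes of its own array and levels of different genes are not set against each other. A gene was tested between 2 groups if both arrays of either group held it well above background. It passed if the groups differed by 1 log2 unit or more and the Benjamini-Hochberg adjusted p of limma, fitted to all arrays and adjusted over all genes tested, was under 0.05. The SE of every difference rests on the spread pooled over the 4 groups. The groups' own replicate SDs were unequal, at 0.534 (CD45-negative), 0.365 (ventricle), 0.177 (CD45-positive) and 0.148 (passage-8). SEs and p-values may thus be too small where CD45-negative arrays are compared. They may be too large for passage-8 against CD45-positive arrays. From 51.5% to 69.9% of an array's spots were well above background, and the number of arrays limits the precision. The labels do not say that replicates came from separate animals or cultures, and the spread behind each p-value may be technical.

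The sort and tissue labels were checked against marker genes. Ptprc, the gene of CD45, had log2 signals of -5.57 and -5.18 in passage-8 cells and -5.52 and -3.34 in CD45-negative cells, against 2.04 and 1.93 in CD45-positive cells. The 8 macrophage markers summed to 33.6 and 34.0 times the array's 75th percentile in passage-8 cells and 59.7 and 94.6 in CD45-negative cells, against 709 and 689 in CD45-positive cells. Itgam, which made up most of the smaller sums, differed by 1.64 on the log2 scale between CD45-negative and CD45-positive cells (limma adjusted p = 0.00455), while the other 7 were lower in CD45-negative cells. Without it, a choice made after seeing the values, the sums were 5.99 and 5.86 in passage-8 and 3.01 and 27.9 in CD45-negative cells, against 689 and 670 in CD45-positive cells. The 8 cardiomyocyte markers were all above background in ventricle, where they summed to 4041 and 3372, while they summed to between 0.51 and 6.07 on the 6 arrays of cells. The 8 fibroblast markers were above background on every array, at sums of 1064 and 1057 in passage-8, 1469 and 1562 in CD45-negative and 639 and 612 in CD45-positive cells, against 280 and 429 in ventricle. The 6 mesothelial markers summed to 36.3 and 32.2 in passage-8, 3.96 and 2.14 in CD45-negative and 5.98 and 5.13 in CD45-positive cells, against 6.51 and 7.49 in ventricle. The 8 endothelial markers summed to between 10.6 and 30.9 on the arrays of cells, against 66.0 and 75.3 in ventricle. The 4 erythroid markers on the array summed to at most 0.155 in cells, against 277 and 191 in ventricle.

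Most of the replication genes were higher in each of the cell populations than in left ventricle. In passage-8 cells, 27 of 33 members were higher than in ventricle and 0 lower, against 39.2% of all tested genes passing in either direction, 20.3% higher and 18.9% lower. In CD45-negative cells, 23 of 31 members were higher and 1, Cdc45, was lower, against 39.5% of all genes passing, 20.3% higher and 19.2% lower. In CD45-positive cells, 24 of 32 members were higher and 0 lower, against 38.1% of all genes passing, 18.3% higher and 19.8% lower. The median member differed from ventricle by 2.79 log2 units in passage-8, 2.30 in CD45-negative and 1.72 in CD45-positive cells, where the median of all tested genes differed by 0.05, 0.06 and -0.02. The 3 comparisons share the ventricle arrays.

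Of the 33 members, 21 passed as higher in all 3 comparisons with ventricle, and 4 (Cdc45, Rfc4, Tyms and Rpa2) passed as higher in none. At an unadjusted limma p under 0.05, the members lower than in ventricle again numbered 0 in passage-8 and 0 in CD45-positive cells. In a tissue extract, fewer cells that express a gene and less of its RNA per cell cannot be told apart. The cells came from cultured atrial explants and the ventricle was biopsied wall, and cell RNA and ventricle RNA were isolated with different reagents. Growth in culture, heart chamber and reagent changed together with the tissue and cannot be told apart. The part of the cardiomyocyte, endothelial and erythroid markers in these differences was not tested.

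**Figure D1:**
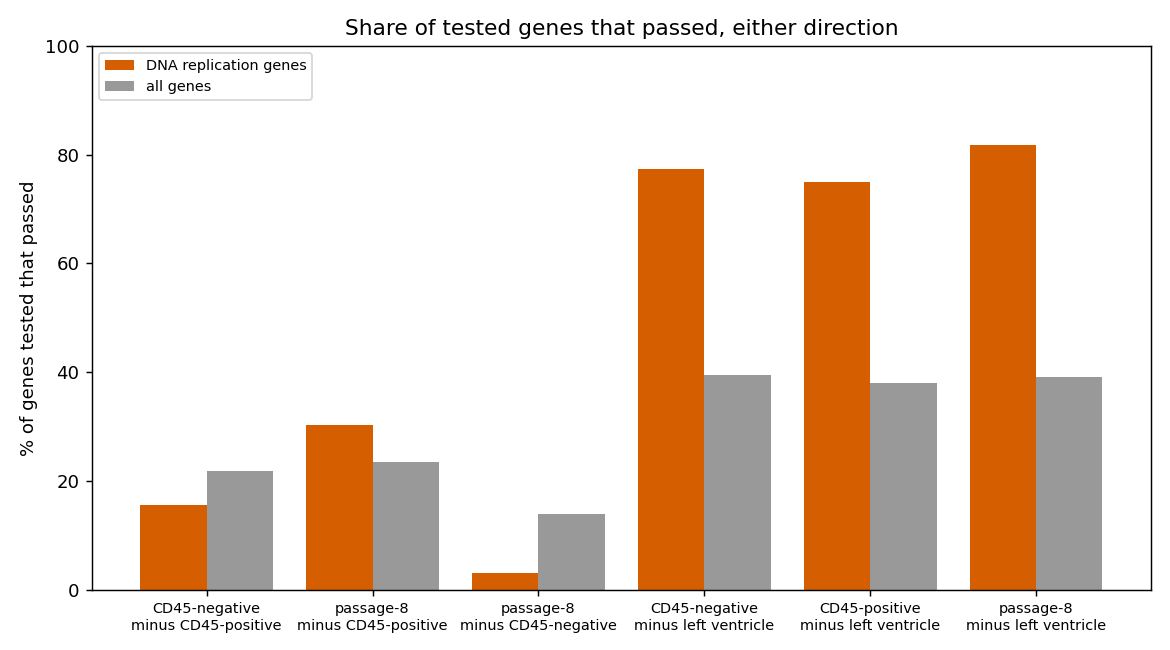
Bars give the percentage of tested genes that passed in either direction, for the DNA replication genes (left bar) and for all genes (right bar), in each of the 6 comparisons. Against left ventricle 75% to 81.8% of the replication genes passed, while in passage-8 against CD45-negative cells 3.03% did.

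**Figure D2:**
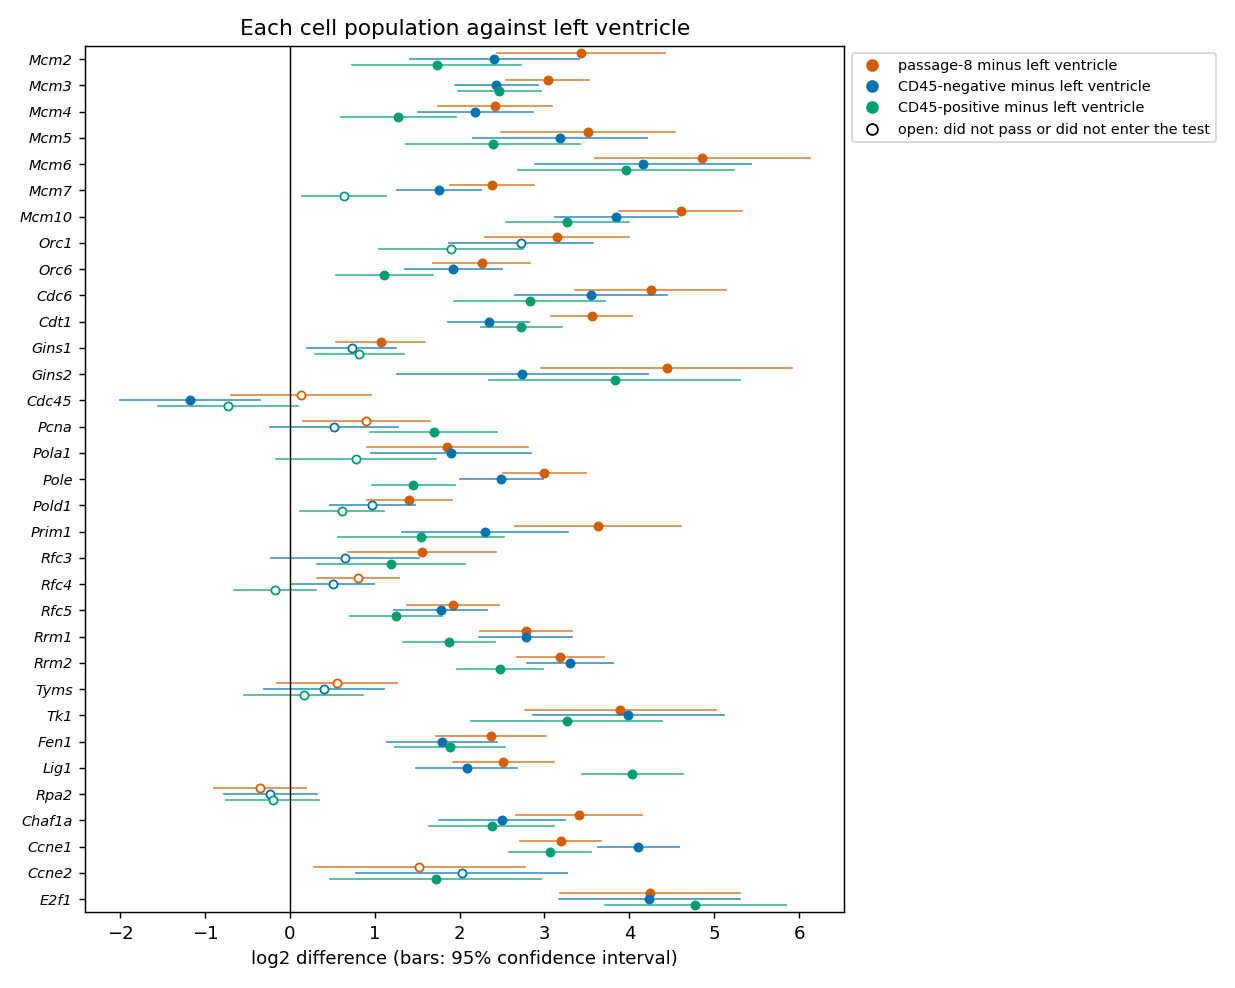
Points give the log2 difference of each replication gene from left ventricle in passage-8, CD45-negative and CD45-positive cells, with bars for the 95% confidence interval and filled points for genes that passed. Most points lie right of 0, and Cdc45, Rfc4, Tyms and Rpa2 have no filled point there.

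The 7 genes counted here as helicase genes are Mcm2 to Mcm7 and Mcm10. All 7 were higher than ventricle in passage-8 and in CD45-negative cells, and 6 of the 7 in CD45-positive cells. Mcm6, a subunit of the helicase ring, had log2 signals of 5.08 and 5.18 in passage-8 cells, 4.45 and 4.41 in CD45-negative cells and 4.28 and 4.17 in CD45-positive cells, against 1.09 and -0.56 in ventricle. All arrays of cells lay above both ventricle arrays, and the ventricle replicates differed by more than the cells did among themselves. The difference was 4.86 in passage-8 cells (SE 0.52, 29.0-fold, limma adjusted p = 0.00101), 4.16 in CD45-negative and 3.96 in CD45-positive cells. Mcm10, which helps to activate the loaded helicase, had 1.70 and 1.65 in passage-8, 0.96 and 0.88 in CD45-negative and 0.36 and 0.32 in CD45-positive cells, against -2.53 and -3.32 in ventricle. It was 24.3-fold higher in passage-8 cells (log2 difference 4.60, SE 0.29, limma adjusted p = 0.000233). Mcm2, Mcm3, Mcm4 and Mcm5, further subunits of the ring, also passed in all 3 comparisons, with differences from 1.28 (Mcm4, CD45-positive) to 3.52 (Mcm5, passage-8). Mcm7, the remaining subunit, has its probe at chr5:138605925-138605984 (mm9) and passed at 2.38 in passage-8 and 1.76 in CD45-negative cells, while its difference of 0.64 in CD45-positive cells (limma adjusted p = 0.0449) was under the minimum of 1.

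The 250 bases before the transcription starts of the members, whatever their levels, were searched on both strands. The sequences sought were TTTCCCGC and TTTGGCGC, which E2F factors are known to bind. Of the 28 members with an entry in the RefSeq promoter table (build GRCm38.p6), 5 (Mcm5, Mcm6, Mcm7, Cdc6 and Pola1) held at least 1 of them, 17.9%, against 1.51% of 27025 genes and 4 of 38 other replication genes. The matches are letters in a window and not measured binding, and a window with no match says nothing of E2F there. The base composition of the windows was not taken into account, and a link of the matches to the levels measured was not tested. Mcm6 carried the match in 2 places, 110 and 47 bases before the start. It is shown with Mcm7 and Cdc6 as examples, and the windows of Mcm5 and Pola1 are not shown. The matched bases are in capitals, GCGGGAAA being TTTCCCGC read from the opposite strand.
Mcm6 (chr1:128359706-128359955, minus strand): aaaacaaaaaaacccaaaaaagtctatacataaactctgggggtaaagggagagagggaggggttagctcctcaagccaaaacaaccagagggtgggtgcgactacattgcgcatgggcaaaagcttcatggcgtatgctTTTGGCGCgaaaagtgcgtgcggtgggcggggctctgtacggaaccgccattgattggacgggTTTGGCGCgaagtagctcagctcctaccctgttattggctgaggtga
Mcm7 (chr5:138171884-138172133, minus strand): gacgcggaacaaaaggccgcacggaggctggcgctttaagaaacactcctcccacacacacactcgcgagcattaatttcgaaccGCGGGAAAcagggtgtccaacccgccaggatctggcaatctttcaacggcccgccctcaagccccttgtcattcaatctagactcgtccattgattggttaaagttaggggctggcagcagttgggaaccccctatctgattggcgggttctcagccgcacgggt
Cdc6 (chr11:98907901-98908150, plus strand): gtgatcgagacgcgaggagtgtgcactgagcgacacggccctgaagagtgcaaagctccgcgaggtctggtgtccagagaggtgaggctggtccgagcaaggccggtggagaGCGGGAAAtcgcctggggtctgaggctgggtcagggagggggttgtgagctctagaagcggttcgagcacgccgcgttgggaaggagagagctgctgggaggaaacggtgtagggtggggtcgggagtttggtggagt
Mcm7 has a further start listed in the table, whose window held neither sequence. The sequence CCAAT, bound by the factor NF-Y, was in the window of 17 of 28 members (60.7%), against 37.5% of all genes. TTTGAA, core letters of an element in cell cycle promoters, was searched with TTTAAA as its control. Each was in 3 of 28 members (10.71%), against 18.3% and 13.7% of all genes.

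The origin loading genes were also higher in cells wherever they were tested. Cdc6, the ATPase that loads the helicase, had -0.54 and -0.64 in passage-8, -0.94 and -1.65 in CD45-negative and -2.0 and -2.03 in CD45-positive cells, against -4.44 and -5.24 in ventricle, where 1 of the 2 arrays was above background. Its difference was 4.25 (SE 0.36, limma adjusted p = 0.000503) in passage-8, 3.55 in CD45-negative and 2.83 in CD45-positive cells. Cdt1, its loading partner, had 4.01 and 4.04 in passage-8, 2.86 and 2.76 in CD45-negative and 3.18 and 3.21 in CD45-positive cells, against 0.57 and 0.37 in ventricle. These Cdt1 values did not overlap between any pair of groups, and the differences from ventricle were 3.56, 2.34 and 2.73. Orc6, a subunit of the origin recognition complex, differed from ventricle by 2.26, 1.92 and 1.11 and passed each time. Orc1, its ATP-binding subunit, was not well above background on either ventricle array and was above it on both passage-8 arrays. It was at least 2.86-fold higher in passage-8 cells than in ventricle (limma adjusted p = 0.00112). In the primary cells Orc1 was above background on 1 of 2 arrays each and did not enter those comparisons.

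The other genes that help to switch the helicase on split. Gins2, a GINS subunit, had 1.17 and 1.05 in passage-8, 0.16 and -1.34 in CD45-negative and 0.52 and 0.47 in CD45-positive cells, against -2.70 and -3.96 in ventricle. It differed from ventricle by 4.44, 2.74 and 3.83, and the CD45-negative replicates lay further apart than those of any other group of cells. Gins1, another GINS subunit, differed by 1.07 in passage-8 cells, where it passed, and by 0.73 and 0.82 in CD45-negative and CD45-positive cells, where it did not. Cdc45, which completes the active helicase, had -1.86 and -1.84 in passage-8, -3.37 and -2.94 in CD45-negative and -2.54 and -2.87 in CD45-positive cells, against -1.58 and -2.38 in ventricle. It was 2.26-fold lower in CD45-negative cells than in ventricle (log2 difference -1.18, SE 0.34, limma adjusted p = 0.0319), and its 0.13 in passage-8 and -0.72 in CD45-positive cells did not pass. The Cdc45 call was lost under 6 of 16 alternatives, with differences from -1.57 to -0.29. It was -0.96 without CD45-negative replicate 1, -0.78 without ventricle replicate 1 and -0.29 with normexp background correction.

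Among the polymerase genes, Prim1, the catalytic primase subunit, had 3.24 and 3.10 in passage-8, 2.14 and 1.53 in CD45-negative and 1.09 and 1.07 in CD45-positive cells, against 0.05 and -0.98 in ventricle (probe at chr10:127466952-127467011, mm9). The 4 groups did not overlap, and the differences from ventricle were 3.63 (SE 0.40, limma adjusted p = 0.00112), 2.30 and 1.54. Pole, the catalytic subunit of polymerase epsilon, differed by 3.0, 2.49 and 1.46 and passed each time by the probe used. A second Pole probe passed in CD45-negative cells alone. Pola1, the catalytic subunit of polymerase alpha, passed in passage-8 (1.86) and CD45-negative cells (1.90), and its 0.78 in CD45-positive cells did not. Pold1, the catalytic subunit of polymerase delta, passed in passage-8 cells alone, at 1.41, with 0.97 and 0.61 in CD45-negative and CD45-positive cells.

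The clamp gene Pcna showed another order. The files place its probe of 60 bases at chr2:132075022-132075054 (build mm9), which spans 33 bases and so holds part of it. It had 4.61 and 4.67 in passage-8, 4.66 and 3.85 in CD45-negative and 5.47 and 5.39 in CD45-positive cells, against 3.83 and 3.64 in ventricle. Pcna passed against ventricle in CD45-positive cells (log2 difference 1.70, SE 0.30, limma adjusted p = 0.00671), while 0.90 in passage-8 and 0.52 in CD45-negative cells did not. Of the clamp loader genes, Rfc5 passed in all 3 comparisons (1.93, 1.78 and 1.25) by the probe used and as lower by its other probe, Rfc3 in passage-8 (1.56) and CD45-positive cells (1.20), and Rfc4 in none (0.81, 0.51 and -0.17).

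Of the 4 genes of nucleotide supply, 3 passed in every comparison with ventricle. Tk1, the thymidine kinase of the salvage pathway, had 2.88 and 2.84 in passage-8, 3.22 and 2.70 in CD45-negative and 2.23 and 2.23 in CD45-positive cells, against -0.36 and -1.70 in ventricle. Its differences were 3.89, 3.99 and 3.26, each with an SE of 0.46. Rrm2 and Rrm1, the ribonucleotide reductase subunits, differed by 3.19, 3.30 and 2.47 for Rrm2 and by 2.79, 2.78 and 1.88 for Rrm1. Tyms, thymidylate synthase, had -1.20 and -1.10 in passage-8, -1.14 and -1.47 in CD45-negative and -1.24 and -1.84 in CD45-positive cells, against -1.56 and -1.85 in ventricle. Its differences of 0.55, 0.40 and 0.16 did not pass, with 95% intervals up to 1.26, 1.10 and 0.87.

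Fen1, the flap nuclease of lagging strand synthesis, differed from ventricle by 2.37, 1.80 and 1.89, and Chaf1a, a histone chaperone subunit that packs new DNA, by 3.40, 2.50 and 2.38. Both passed in passage-8, CD45-negative and CD45-positive cells. Lig1, the ligase of lagging strand pieces, had 3.61 and 3.66 in passage-8, 3.42 and 2.97 in CD45-negative and 5.24 and 5.06 in CD45-positive cells, against 1.24 and 0.99 in ventricle. The CD45-positive arrays stood apart at the top, and their difference from ventricle was 4.03 (SE 0.24, 16.4-fold, limma adjusted p = 0.000203), beside 2.52 in passage-8 and 2.08 in CD45-negative cells. Rpa2, a subunit of the protein that coats unwound DNA, was the only member with its highest mean in ventricle. It had -0.34 and -0.14 in passage-8, -0.21 and -0.03 in CD45-negative and 0.04 and -0.22 in CD45-positive cells, against 0.01 and 0.21 in ventricle, and its differences of -0.35, -0.23 and -0.20 did not pass.

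Of the genes of entry into S phase, E2f1 and Ccne1 stood well above ventricle in all 3 cell populations. E2f1, an activating E2F factor, had 1.62 and 1.55 in passage-8, 1.75 and 1.42 in CD45-negative and 2.16 and 2.07 in CD45-positive cells, against -2.01 and -3.31 in ventricle. It was 18.9-fold higher in passage-8 cells, 18.9-fold higher in CD45-negative cells and 27.4-fold higher in CD45-positive cells (log2 differences 4.24, 4.24 and 4.77, each with an SE of 0.43). Ccne1, a cyclin E, had 2.16 and 2.11 in passage-8, 2.99 and 3.12 in CD45-negative and 2.04 and 1.99 in CD45-positive cells, against -0.97 and -1.14 in ventricle. It passed each time, at 3.19, 4.11 and 3.07. Ccne2, the other cyclin E, was not well above background in ventricle and was at least 1.59-fold higher in CD45-positive cells (limma adjusted p = 0.0372), a call lost under 8 of 15 alternatives with differences down to 0.18. Its bound in passage-8 cells was at least 1.39-fold, where the test was not passed (limma adjusted p = 0.0519), and in CD45-negative cells, above background on 1 of 2 arrays, it did not enter.

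**Figure D3:**
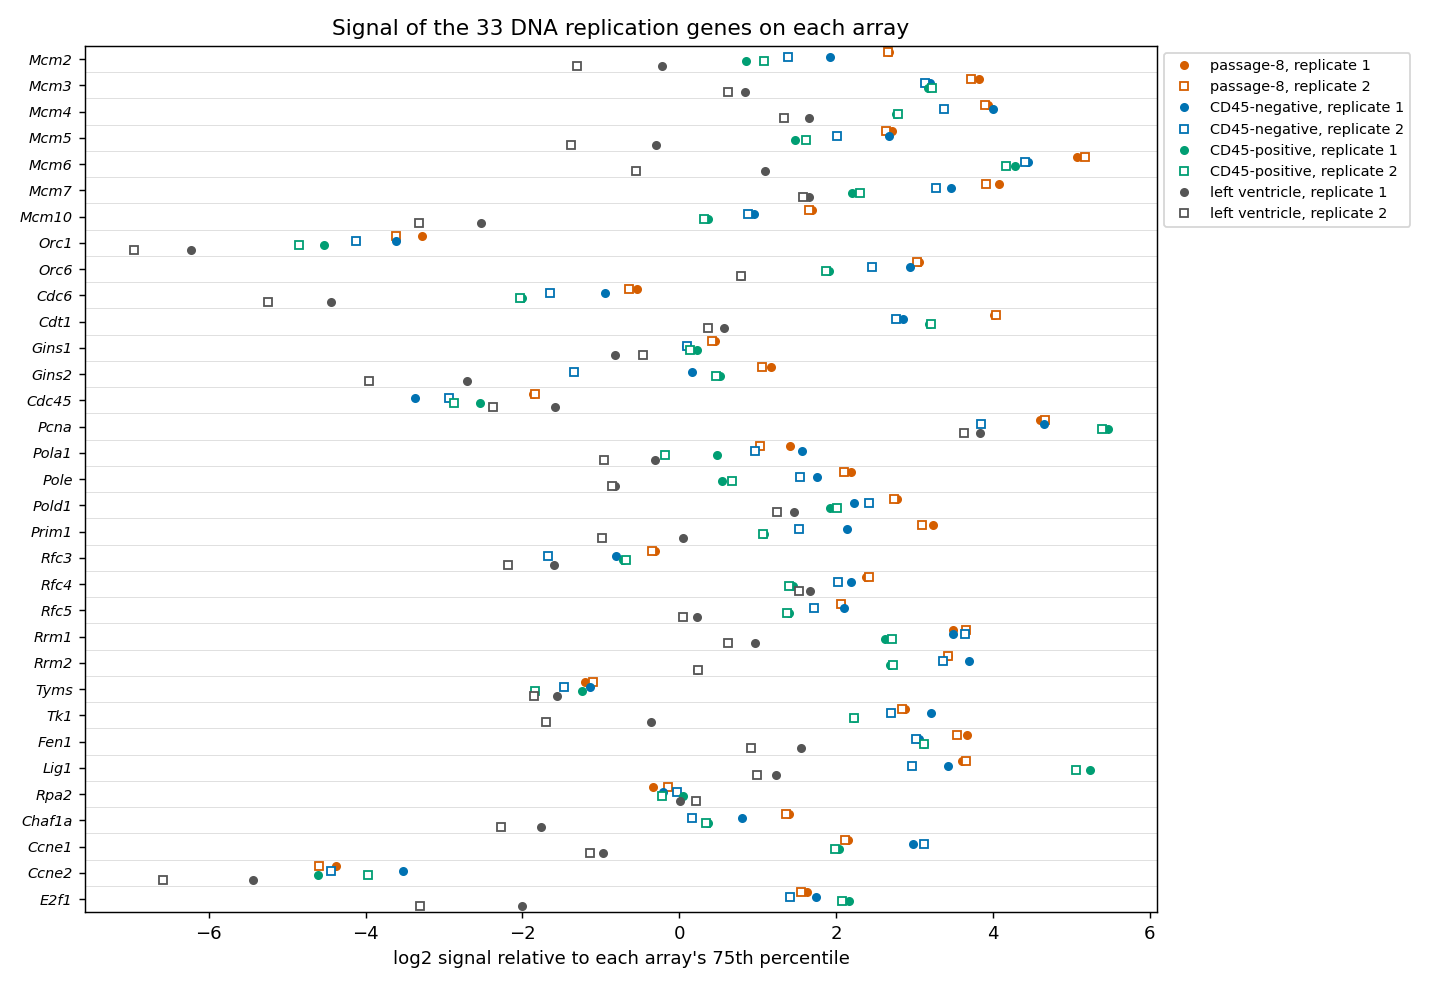
Each point is 1 array's log2 signal for 1 replication gene, relative to that array's 75th percentile, with circles for replicate 1 and squares for replicate 2 of the 4 groups. Ventricle points (grey) lie left for most genes, CD45-positive points (green) lie right for Lig1 and Pcna, and for Gins2 the replicates of CD45-negative cells and of ventricle lie further apart than the others.

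Passage-8 cells carried more RNA of several helicase, loading and polymerase genes than the kind of primary cell they derive from, CD45-positive cells. Of 33 members, 9 were higher (Mcm2, Mcm4, Mcm7, Mcm10, Orc1, Orc6, Cdc6, Pole and Prim1) and 1, Lig1, was lower, 30.3% in all, against 23.5% of all genes passing, 12.6% higher and 10.9% lower. The median member differed by 0.83, beside 0.16 for all genes tested, and 28 of 33 differences were above 0. Prim1 was 4.26-fold higher (log2 difference 2.09, SE 0.40, limma adjusted p = 0.0140), Mcm7 3.34-fold (1.74, SE 0.20, limma adjusted p = 0.00299) and Mcm2 3.26-fold (1.70, SE 0.40, limma adjusted p = 0.0279). Pole differed by 1.54, Cdc6 by 1.42, Mcm10 by 1.34, Orc1 by 1.25, Orc6 by 1.15 and Mcm4 by 1.14. A second Pole probe was at 0.43 and the other Cdc6 probe at 1.43, and neither passed (limma adjusted p over all probes = 0.289 and 0.198). Orc1 was above background on 1 of 2 CD45-positive arrays, and its call was lost under 10 of 15 alternatives. By role, 4 of 7 helicase genes (Mcm10 among them), 3 of 4 loading genes and 2 of 8 polymerase and clamp genes passed as higher. Of the 4 nucleotide supply, 3 helicase activation, 3 S phase entry and 4 single-strand binding, joining and assembly genes, 0 passed as higher. At an unadjusted limma p under 0.05 these groups had, in that order, 6, 4, 6, 2, 1, 0 and 1 genes higher. The polymerase and clamp group and the joining group each had 1 lower. The groups are small, and the roles were not tested against each other.

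Lig1, whose probe lies at chr7:13896609-13896667 (mm9), ran the other way. It was 2.86-fold lower in passage-8 than in CD45-positive cells (log2 difference -1.52, SE 0.24, limma adjusted p = 0.00805), and Pcna, at -0.79, did not pass. Of the markers given above, 4 of 6 mesothelial ones were higher in passage-8 than in CD45-positive cells, the macrophage sums were lower, and their part in these values was not tested. Leaving out 1 array reduced the 10 passing members to between 2 and 3, although the differences of Prim1 stayed between 2.02 and 2.16. Without CD45-positive replicate 1 or 2 the members that passed were 2 each time, without passage-8 replicate 1 they were 3, and without passage-8 replicate 2 they were 2. Mcm7 was the only member that passed under all 16 alternatives.

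Between the primary cells, CD45-negative against CD45-positive, the share of these genes that passed was not far from that of all genes. Of 32 members tested, 3 were higher in CD45-negative cells (Mcm7, Pole and Ccne1) and 2 lower (Pcna and Lig1), 15.6% in all, against 21.8% of all genes passing, 11.2% higher and 10.5% lower. The median member differed by 0.44, beside 0.17 for all genes. Mcm7 was 2.17-fold higher (log2 difference 1.12, SE 0.20, limma adjusted p = 0.0134), Pole differed by 1.03 and Ccne1 by 1.04. A second Pole probe, at 0.84, and the other Ccne1 probe, at -0.75, did not pass. Lig1 was 3.86-fold lower (log2 difference -1.95, SE 0.24, limma adjusted p = 0.00494) and Pcna 2.26-fold lower (-1.18, SE 0.30, limma adjusted p = 0.0384). For Lig1, Pcna, Mcm7, Pole and Ccne1 the arrays of the groups did not overlap, as for 27 members in all and 69% of all genes. The macrophage marker sums were lower in CD45-negative cells, as were 4 of 6 mesothelial markers, and their part was not tested.

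Rrm1 and Rrm2, at 0.90 and 0.82, were past the adjusted p but under the minimum difference. Pola1 differed by 1.12 with a limma adjusted p of 0.0830. Without CD45-positive replicate 1, or without replicate 2, 0 members passed with limma, and the Lig1 adjusted p was then 0.0515 and 0.0521 at differences of -1.86 and -2.04. At an unadjusted limma p under 0.05 there were 8 members without CD45-positive replicate 1 and 7 without replicate 2, against 11 with all arrays. Pcna moved to -0.77 without CD45-negative replicate 2 and to -1.58 without replicate 1.

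Few of these genes passed between passage-8 and CD45-negative cells. Of 33 members, 1 (Cdt1) was higher in passage-8 cells and 0 lower, 3.03% in all, against 13.9% of all genes passing, 6.97% higher and 6.98% lower. The median member differed by 0.42, beside -0.01 for all genes tested, and 27 of 33 differences were above 0. Cdt1 was 2.33-fold higher (log2 difference 1.22, SE 0.19, limma adjusted p = 0.0142), and its arrays did not overlap, as for 20 of 33 members and 64.5% of all genes. Of the mesothelial markers 4 of 6 were higher in passage-8 cells too, and their part was not tested. At an unadjusted limma p under 0.05, 11 members were higher and 1, Ccne1, was lower. Ccne1 had a difference of -0.92 (limma adjusted p = 0.0320), under the minimum of 1. Gins2 at 1.70, Prim1 at 1.34 and Cdc45 at 1.31 did not pass, with limma adjusted p-values of 0.114, 0.0765 and 0.0526. The 95% interval of Rrm1 ran from -0.54 to 0.55 and that of Pola1 from -0.99 to 0.90, so a difference of that size in either direction was not resolved. Without passage-8 replicate 1 or 2 the number passing was 0, with Cdt1 differences of 1.23 and 1.20, and without CD45-negative replicate 1 it was 4.

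**Figure D4:**
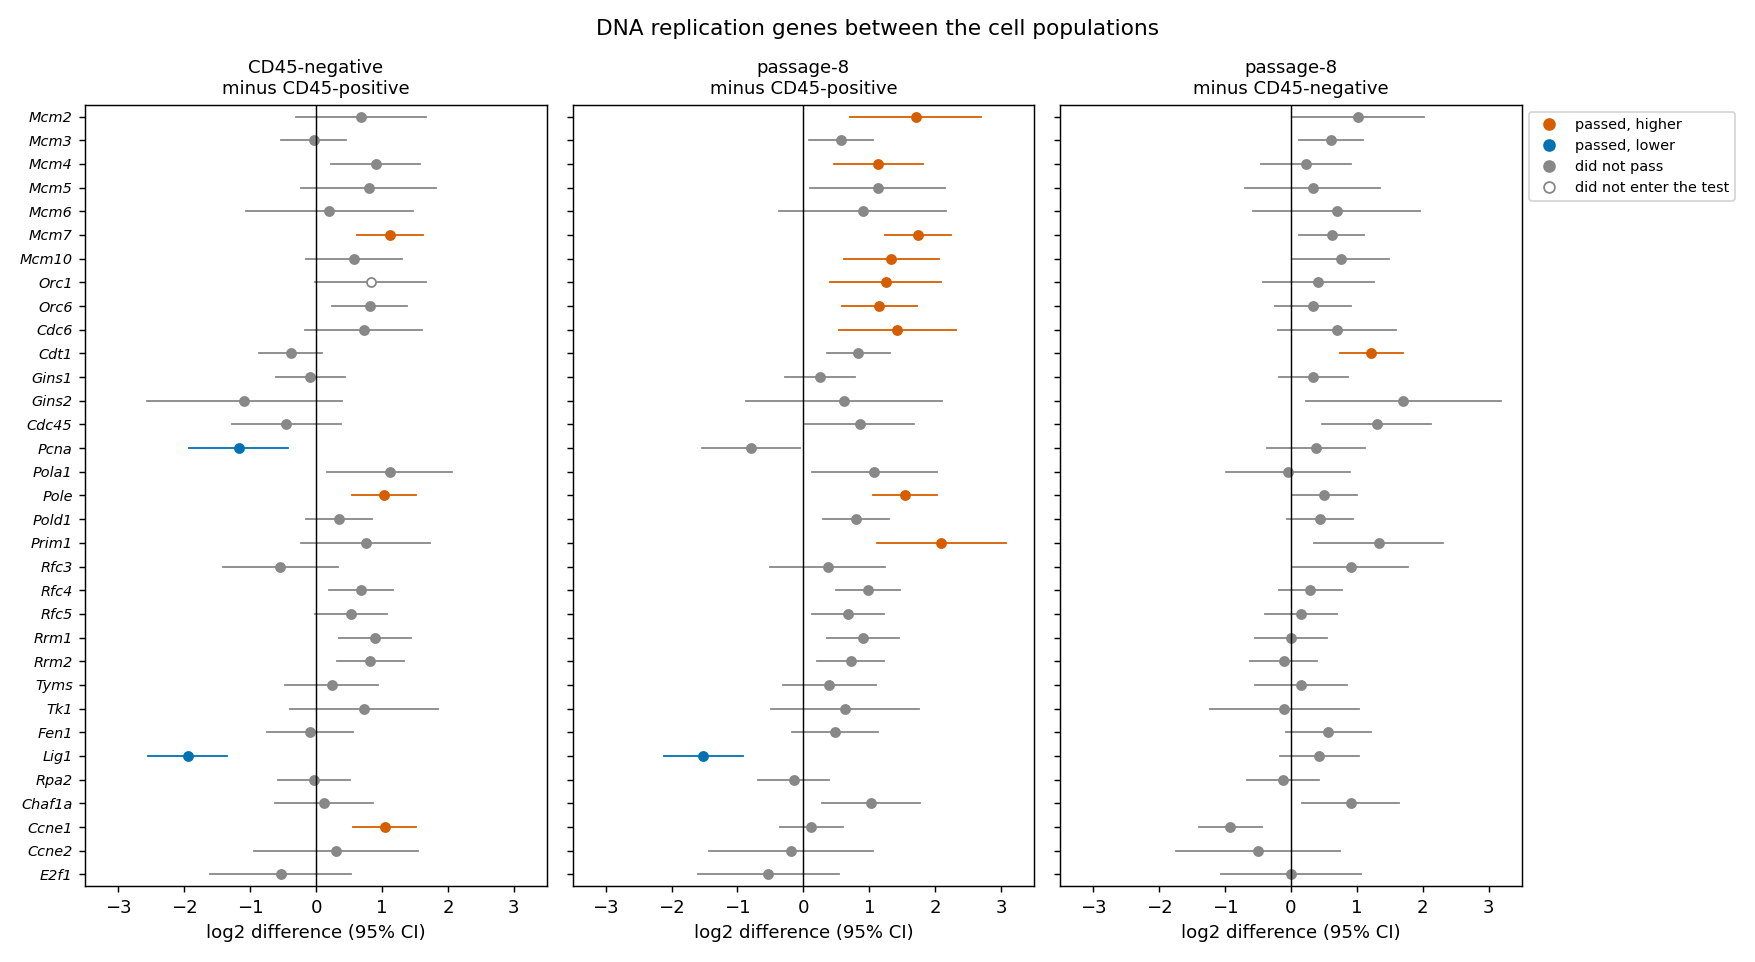
Points give the log2 difference of each replication gene between the cell populations, CD45-negative minus CD45-positive, passage-8 minus CD45-positive and passage-8 minus CD45-negative, with 95% confidence intervals. Coloured points passed, 5, 10 and 1 in the 3 panels, and Lig1 is the lowest point of the first and second panel.

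Ordering the group means put passage-8 cells highest for 24 members, CD45-negative cells for 5 (Pola1, Rrm2, Tk1, Ccne1 and Ccne2), CD45-positive cells for 3 (Pcna, Lig1 and E2f1) and ventricle for 1. Ventricle was lowest for 30. Much of this order is not resolved, since Pola1 means of 1.22 in passage-8 and 1.27 in CD45-negative cells, for example, lay within 1 SD (0.28 and 0.42) of each other. Replicates of these genes differed more in CD45-negative cells and ventricle than in passage-8 and CD45-positive cells. Regardless of sign, the members' median replicate difference was 0.33 in CD45-negative cells and 0.33 in ventricle, where that of all genes was 0.45 and 0.30. Replicate 1 was above replicate 2 for 25 of 31 members in CD45-negative cells and 26 of 30 in ventricle, by a median of 0.33 and 0.31, where the median of all genes was 0.06 and 0.07. In passage-8 and CD45-positive cells the members' medians were 0.04 and 0.02.

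There were 7 members with several probes, and in some of them the probes gave different answers. Unless another probe is named, the values above are from the probe with the highest mean over the 8 arrays. For Ccne1, the other probe was well above background on 6 arrays and differed by -0.75 in CD45-negative against CD45-positive cells, where the probe used differed by 1.04. It differed by 1.17 in passage-8 against CD45-negative cells (limma adjusted p over all probes = 0.0480), where the probe used differed by -0.92. Both Ccne1 probes were above ventricle in all 3 cell populations.

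The probes of Rfc5 disagreed against ventricle. The other Rfc5 probe had -1.06 and -1.07 in passage-8, -0.97 and -0.74 in CD45-negative and -0.82 and -0.89 in CD45-positive cells, against 0.92 and 0.78 in ventricle. It thus fell by 1.91, 1.71 and 1.71 on the log2 scale relative to ventricle and passed as lower each time, while the probe used passed as higher. The other Rfc4 probe passed as higher in passage-8 cells against CD45-negative (1.23), CD45-positive (1.22) and ventricle (1.13). The other Tk1 probe above background on all arrays was at -0.75 in CD45-negative against CD45-positive cells, where the probe used was at 0.73. For Pole, a second probe was at 0.66 in passage-8, 1.08 in CD45-negative and 0.23 in CD45-positive cells against ventricle. It passed in CD45-negative cells alone, while the probe used passed each time (1.46 in CD45-positive cells). In passage-8 against CD45-positive cells it was at 0.43 and did not pass. The other Cdc6 probe was above background on 6 arrays and passed as higher than ventricle in each cell population. In passage-8 against CD45-positive cells it was at 1.43 and did not pass.

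The Mcm3 probes overlap by 43 bases with 1 mismatch, A31G, counted from 1 at the 5′ end of the probe used, and yet differed from ventricle by 3.04 and 1.92 in passage-8 cells. The first 30 bases of the overlap and of each discordant probe are shown so that the measured targets can be told apart. The mismatched base is in capitals, and the probe used comes first in each pair, with the probe's position in build mm9 as the files give it. For the Ccne1 probe used, that interval spans 24 bases and so holds only part of the probe of 60 bases.
Mcm3, probe used (chr1:20793136-20793195): aagctttctttgcAattagactagtatgta
Mcm3, other probe (chr1:20793119-20793178): aagctttctttgcGattagactagtatgta
Ccne1, probe used (chr7:38882937-38882960): gcatgtcctgccttcatgaactcttatttt
Ccne1, other probe (chr7:38885574-38885633): ataaaaacacttttacagcttattgggatt
Rfc5, probe used (chr5:117829243-117829302): ataggaaagaaactacaacagtttgccttc
Rfc5, other probe (chr5:117836290-117836349): ggtgacccccaactataaaattatgttcat
No run of 20 bases of the 42 probes recurs in a probe of another gene name on the array. The other Rfc5 probe is the only one with such a run in the promoter window of another gene (1 gene), whose part in that probe's values was not tested. The exon each probe lies in was not analysed here, and which transcripts the discordant probes detect was not tested.

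**Figure D5:**
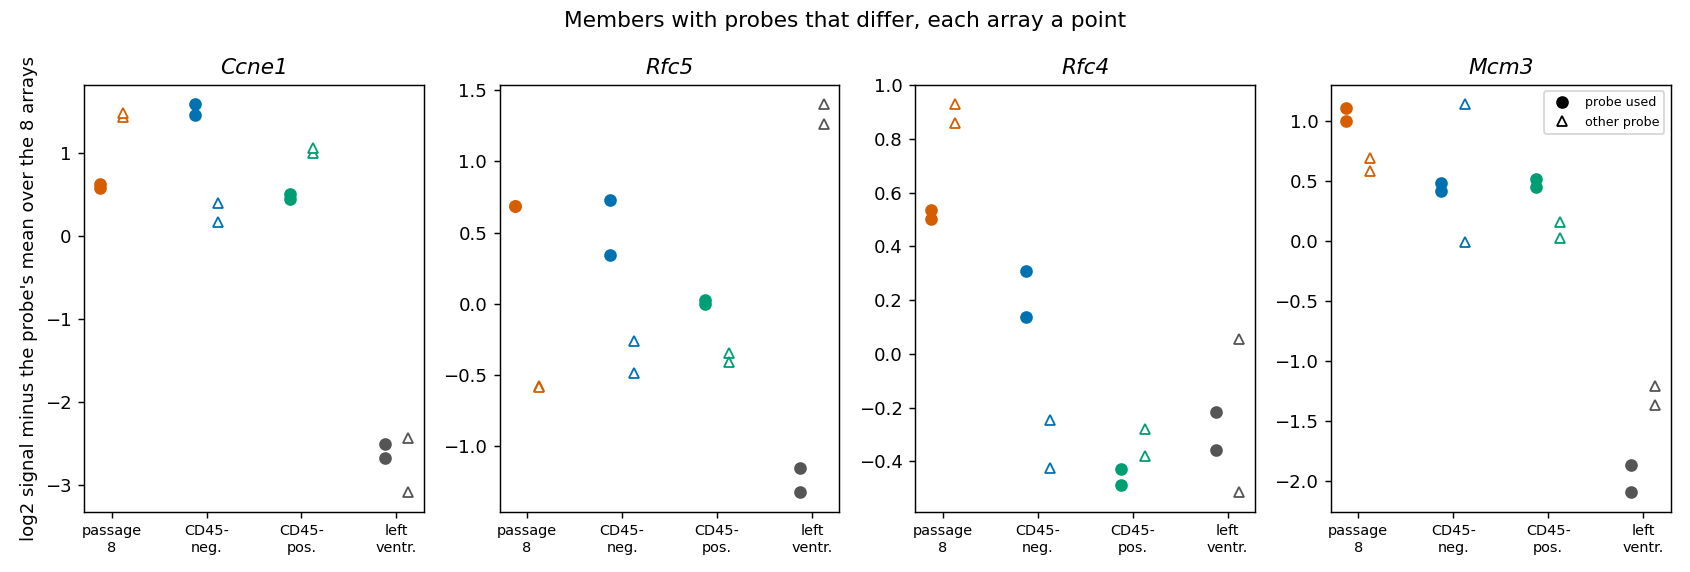
Each point is 1 array's log2 signal for a probe of Ccne1, Rfc5, Rfc4 or Mcm3, minus that probe's mean over the 8 arrays, with circles for the probe used and triangles for the other probe. For Rfc5 the triangles are highest in left ventricle where the circles are lowest, and for Ccne1 the probes order the cell populations differently.

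Another 46 genes of DNA replication outside the set were also higher in cells where they passed, with 1 exception. Of the 46, 26 passed as higher in passage-8 cells and 20 in CD45-negative cells, and of the 45 tested in CD45-positive cells 17 did. The genes lower than in ventricle numbered 0, 1 and 0 with limma, and 2, 1 and 3 at an unadjusted p under 0.05. Their medians were 1.44, 0.78 and 0.67, beside 2.79, 2.30 and 1.72 for the members. Of all tested genes, 20.3%, 20.3% and 18.3% passed as higher in these comparisons, and 18.9%, 19.2% and 19.8% as lower. Ticrr, which helps to load Cdc45, differed by 6.17 between passage-8 cells and ventricle (limma adjusted p = 0.00187). Dbf4, the activator of the Cdc7 kinase, differed by 4.85 (limma adjusted p = 0.000144), both genes with 1 of 2 ventricle arrays above background. Gmnn, the inhibitor of Cdt1, was the gene lower in CD45-negative cells than in ventricle, at -1.24 (limma adjusted p = 0.00747).

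Between passage-8 and CD45-positive cells 12 of these 46 were higher and 0 lower (1 lower at an unadjusted limma p under 0.05), with Timeless, a replication fork protein, at 1.92 and Uhrf1, which brings DNA methylation to new strands, at 1.82. Cdc7, the kinase that fires origins, passed too, but was not well above background on either CD45-positive array. Between passage-8 and CD45-negative cells 3 were higher (Dna2 at 1.75, Pola2 at 1.53 and Timeless at 1.01) and 0 lower (2 lower at an unadjusted limma p under 0.05). Between CD45-negative and CD45-positive cells 3 were higher (Cdc7, Uhrf1 and Dut) and 1, the polymerase delta subunit gene Pold3, was lower, at -1.35. Of all tested genes, 12.6%, 6.97% and 11.2% passed as higher in these comparisons, in the order given, and 10.9%, 6.98% and 10.5% as lower.

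Of 24 genes of the E2F and RB families and of S phase kinases, passage-8 cells held 13 above and 4 below their ventricle level, CD45-negative cells 14 above and 3 below, and CD45-positive cells 11 above and 3 below. Of all tested genes, 20.3%, 20.3% and 18.3% passed as higher and 18.9%, 19.2% and 19.8% as lower. Rb1, the retinoblastoma protein that holds E2F factors in check, was lower in passage-8 (log2 difference -1.92, limma adjusted p = 0.00452) and CD45-negative cells (-1.13, limma adjusted p = 0.0261) than in CD45-positive cells. E2f7, a repressing E2F factor, was higher in both, at 1.39 and 1.79, as was the cyclin D kinase Cdk4, at 1.59 and 1.02. Mycn passed as higher in passage-8 cells only, with the largest difference of the 24 there, 5.93, and Ccnd3 in CD45-negative cells only. The CD45-negative replicates of Mycn lay far apart, at 0.25 and -2.77. Both comparisons use the same CD45-positive arrays. Between passage-8 and CD45-negative cells 0 of the 24 passed in limma, against 13.9% of all tested genes. At an unadjusted p under 0.05, 4 of the 24 were higher and 2 lower.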

How the data were processed

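Total RNA (200 ng a sample) was labelled with Cy3 and hybridised to 8 one-colour arrays on 1 slide, per the labels' protocols and the file headers. Per the submitters' processing notes, the authors used Agilent Feature Extraction 10.7. The processed signal analysed here is its spot intensity with the background subtracted and the array's trend removed, per the file headers. The authors' deposited value table is on a log2 scale (array medians from 6.087 to 6.094) and served as an alternative. The sources used here do not give its normalization.

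Control spots and spots marked as outliers were left out, spots of a probe were averaged, and log2 signal minus each array's 75th percentile was taken with no pseudocount. Each gene name was represented by its probe with the highest mean. All arrays were fitted with limma 3.58.1 (R 4.3.3), 1 mean per group, 4 residual degrees of freedom, two-sided p, over 6 comparisons. The fit was run on simulated data with 1 spread per gene for all groups, so it says nothing of the unequal spreads of these groups. A fold against a group with no array above background is a lower bound, in which the dimmer group's arrays each take their own signal or the array's lowest one well above background, whichever is higher. With 2 arrays a group, the smallest p of an exact permutation test is 0.333, and none was used. Members, gene lists and tests were chosen with earlier results of these data known. All members are described, and up to 4 passing genes per direction of each other list were open to naming. Promoters came from the RefSeq table of build GRCm38.p6, and probe positions from the files (mm9). Alternatives covered normalization, background correction, the authors' table, filters, probes per gene, thresholds, moderation, arrays in the fit, array weights, the replicate number as a block and each array left out.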

Additional observations from a re-analysis of the deposited data

How the results depend on the processing

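Of 3090 member values recomputed under alternatives, 2877 kept direction and side of the threshold, 42 changed sign with the member passing under neither, 116 no longer passed, 54 newly passed and 1 reversed. The reversed value was Rfc5, which in CD45-positive cells against ventricle turned to -0.23 with the mean of all its probes. Against ventricle, 22 of 27 passing members in passage-8, 20 of 24 in CD45-negative and 16 of 24 in CD45-positive cells passed under every alternative. Between cells, 1 of 10 (Mcm7), 0 of 5 and 0 of 1 did.

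In CD45-negative against CD45-positive cells the members passing numbered 3 with quantile normalization, 2 with normexp, 3 with the authors' table, 3 with the mean of all probes, where the median member was 0.25, and 1 with only the 4 arrays compared, where 1976 genes passed. In passage-8 against CD45-negative cells they numbered 3 with quantile normalization, 4 with normexp, 5 with the authors' table, 2 with no minimum difference, 4 with trend and robust moderation and 0 with only the 4 arrays compared, where 181 genes passed, while array weights gave 2100 genes. In passage-8 against CD45-positive cells the median member was 0.70 with normexp and 0.73 with the authors' table. With only the 4 arrays compared, 12 members and 6574 genes passed there, against 10 and 5547 with all arrays. The median of all genes in CD45-negative against CD45-positive cells moved to 0.33 with normexp and 0.07 with quantile normalization.

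With 1 array left out, the lone array of a group was assumed to vary like the other groups. Members passing ranged from 0 to 5 in CD45-negative against CD45-positive cells, 2 to 3 in passage-8 against CD45-positive and 0 to 4 in passage-8 against CD45-negative. In the same order all genes passing ranged from 693 to 6029, 2194 to 4909 and 854 to 5193, and the median member from 0.35 to 0.72, 0.75 to 0.85 and 0.21 to 0.61. Against ventricle the median member ranged from 1.96 to 2.48 in CD45-negative and 1.5 to 2.13 in CD45-positive cells, where genes passing ranged from 5676 to 7464. The group left with 1 array adds nothing to the pooled spread, and replicate SDs ran from 0.148 in passage-8 to 0.534 in CD45-negative cells. The cause of these changes was not tested.

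The labels give the groups the same replicate numbers but no shared animal or day. Deviations from the group means correlated between -0.196 and 0.193 over pairs of groups. Each group gives only 1 independent deviation per gene, so these correlations cannot tell whether the numbers pair the samples. With the replicate number as a block, the members passing were 6 in CD45-negative and 12 in passage-8 against CD45-positive cells, 1 in passage-8 against CD45-negative, and 27, 24 and 24 in passage-8, CD45-negative and CD45-positive cells against ventricle. Dim members such as Orc1 and Ccne2 are limited by their signal over background.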
